A study of Mus musculus with 14 samples.

Results

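A set of 8 genes of platelets and of neutrophil granules was followed across lung RNA-seq of 2 mouse knockouts: Ppbp, Gp9, Gp5, Gp6, Clec1b, Camp, Ngp and Mpo. They were picked by symbol, wherever they had a row in either deposited table, and are 8 of the 4658 genes with a row in at least 1 of the tables. The choice was made with their lower values in these knockouts known, so those values are a description and no test of them was made here. The libraries comprise 4 of Men1 KO and 4 of wild-type mice, and 3 of Kmt2a KO and 3 of wild-type mice. Menin, the product of Men1, is a binding partner of MLL, the histone methyltransferase that Kmt2a encodes. The labels give genotype and tissue, but no Cre driver, strain, age or sex, and nothing on whether a knockout was limited to a cell type. They name lung as the tissue, whereas their text on RNA extraction speaks of peritoneal macrophages. The Kmt2a table holds lung epithelial genes at high level, with deposited group means of 612534 in Kmt2a KO and 1958770 in wild type for the club cell secretoglobin Scgb1a1. No gene of the alveolar or airway marker lists has a row in the Men1 table, so the tissue of those libraries was not checked.

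Platelets are fragments of megakaryocytes and carry RNA made in the parent cell, and the lung is a site where megakaryocytes release them. They stick to a damaged vessel wall through surface receptors: the GPIb-IX-V complex for von Willebrand factor and glycoprotein VI for collagen. A further receptor, CLEC-2, binds podoplanin on other cells. Neutrophils build their granules in sequence during maturation in the bone marrow, primary granules with myeloperoxidase first and secondary granules with cathelicidin later, and the transcripts of these proteins decline as the cells mature.

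The 5 platelet members are encoded on separate chromosomes, apart from Gp9 and Clec1b, which both lie on chromosome 6. In GENCODE annotation of GRCm38, Ppbp lies at chr5:90768518-90770063 (+), Gp9 at chr6:87778072-87779768 (+) and Clec1b at chr6:129397297-129409335 (+). Gp5 lies at chr16:30307685-30310779 (−) and Gp6 at chr7:4363965-4397744 (−). Of the neutrophil members, Camp lies at chr9:109847379-109849617 (−), Ngp at chr9:110419747-110423012 (+) and Mpo at chr11:87793581-87804413 (+). Clec1b shares 184 exon bases with Clec9a on the same strand, and 512 exon bases of Mpo overlap the antisense gene Gm11505. The library kit is not stated to keep strand, so reads in those stretches could belong to either gene. The 250 bases before the RefSeq start (GRCm38.p6, gene strand) are shown for the platelet members, which share the megakaryocyte lineage and were each lower in 1 of the knockouts. Their RefSeq and GENCODE starts are at most 2 bases apart. Capitals mark GATAA or its reverse complement TTATC, the core of the site bound by GATA factors. The windows are chr5:90768268-90768517 (+) for Ppbp, chr6:87777820-87778069 (+) for Gp9, chr16:30310782-30311031 (−) for Gp5, chr7:4397745-4397994 (−) for Gp6 and chr6:129397047-129397296 (+) for Clec1b.
Ppbp: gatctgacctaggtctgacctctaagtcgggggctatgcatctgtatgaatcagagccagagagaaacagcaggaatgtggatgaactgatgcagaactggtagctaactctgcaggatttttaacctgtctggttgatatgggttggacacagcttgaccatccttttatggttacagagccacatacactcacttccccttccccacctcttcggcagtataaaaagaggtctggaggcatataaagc
Gp9: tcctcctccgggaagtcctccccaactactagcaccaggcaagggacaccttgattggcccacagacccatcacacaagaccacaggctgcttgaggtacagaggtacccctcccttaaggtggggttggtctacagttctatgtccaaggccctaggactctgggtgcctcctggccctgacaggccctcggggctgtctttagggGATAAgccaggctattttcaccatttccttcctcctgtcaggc
Gp5: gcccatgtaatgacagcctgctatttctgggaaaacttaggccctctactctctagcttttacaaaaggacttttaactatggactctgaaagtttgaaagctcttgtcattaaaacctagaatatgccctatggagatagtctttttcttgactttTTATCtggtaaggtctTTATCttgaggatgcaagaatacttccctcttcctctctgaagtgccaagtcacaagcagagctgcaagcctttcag
Gp6: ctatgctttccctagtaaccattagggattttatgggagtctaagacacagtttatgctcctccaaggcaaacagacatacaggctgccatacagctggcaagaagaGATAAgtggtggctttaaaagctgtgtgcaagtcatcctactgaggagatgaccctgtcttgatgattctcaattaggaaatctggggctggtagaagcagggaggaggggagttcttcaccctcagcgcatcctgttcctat
Clec1b: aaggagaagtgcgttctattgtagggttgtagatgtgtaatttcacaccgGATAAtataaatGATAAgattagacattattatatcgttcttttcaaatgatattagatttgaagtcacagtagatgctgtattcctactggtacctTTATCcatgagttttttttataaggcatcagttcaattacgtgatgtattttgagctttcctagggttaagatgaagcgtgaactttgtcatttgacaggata
GATAA, searched on both strands, was found in 4 of the 5 platelet windows and in 0 of the 3 neutrophil windows, and in 22.6% of 32851 RefSeq promoters of the same length. For the neutrophil members the RefSeq and GENCODE starts are 161 (Camp), 203 (Mpo) and 61 (Ngp) bases apart. Their windows therefore depend on the start used, for this and the other motifs. Gp9 has 1 match, 43 bases before the start, Gp5 has 2, Gp6 has 1 and Clec1b has 3. Ppbp has none. GGAAG, the core of ETS factor sites, was found in 3 of the 5 platelet and 2 of the 3 neutrophil windows, against 64.1% of all promoters. TGTGGT, a RUNX core, was found only in the Gp9 window of the 8 (14.0% of promoters), and TTGCNNAA, a C/EBP form, only in that of Ngp (9.56%). The motifs were chosen after the sequences had been read, and a match in a window describes its letters only.

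The members were split between the tables by gene, and Mpo alone had a row in both. Ppbp, Gp9, Camp, Ngp and Mpo had a row in the Men1 table, which holds 772 genes with a p below 0.05 and at least a 2-fold change. Gp5, Gp6, Clec1b and Mpo had a row in the Kmt2a table, which holds 3956 genes past the authors' adjusted p threshold of 0.05. All 9 member rows were lower in the knockout. Of all rows, 231 of the Men1 table (29.9%) and 1957 of the Kmt2a table (49.5%) were lower in the knockout. The tables are filtered, so the absence of Gp5, Gp6 and Clec1b from the Men1 table, and of Ppbp, Gp9, Camp and Ngp from the Kmt2a table, gives no value for them there. In lung tissue as a whole, fewer platelets or neutrophils and less RNA per cell cannot be told apart. The targeted genes Men1 and Kmt2a are absent from both tables, so the genotypes were not checked on them.

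Values are reads divided by the authors' size factor of the library, called normalized counts. The size factors of the Men1 libraries lay between 0.811 and 1.38. The Kmt2a table gives only a mean per group, and the reads of the 3 libraries behind each mean were recovered from its digits. The letters a, b and c stand for the recovered libraries, which cannot be tied to labels. Their size factors lay between 1.07 and 1.18 in Kmt2a KO and between 0.817 and 0.960 in wild type. The Kmt2a table does not name the libraries of its wild-type column, which was taken as the wild-type samples with Kmt2a titles. Total reads per library are unknown, as the tables hold selected genes.

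The platelet receptor genes Gp6, Gp5 and Clec1b were lower in Kmt2a KO lung, with every knockout library below every wild-type library. That pattern held in 48.9% of the genes with recovered reads, and in 1661 of the 1742 that were lower in the knockout. The other 3 adhesion receptor genes with a row in the Kmt2a table, Fcer1g, Cd36 and Cd9, were higher. Gp6 encodes glycoprotein VI, the collagen receptor that triggers platelet activation. It had 17.0, 18.4 and 25.2 normalized counts in Kmt2a KO libraries a, b and c, against 82.3, 109 and 46.5 in wild-type libraries a, b and c. The knockout libraries lay close together, and the lowest wild-type library stood 21.3 normalized counts above the highest of them. The mean was 20.2 ± 4.39 in Kmt2a KO and 79.3 ± 31.4 in wild type (SD, n = 3 each), a log2 ratio of −1.97. In the authors' deposited table its log2 fold change was −1.98 with an adjusted p of 0.000122.

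Gp5 encodes glycoprotein V, the subunit of the GPIb-IX-V complex that thrombin cleaves. It had 62.9, 42.8 and 84.9 normalized counts in Kmt2a KO libraries a, b and c, against 156, 247 and 88.1 in wild type a, b and c. The groups did not overlap, but knockout library c and wild-type library c were 3.21 normalized counts apart. Before division by size factors these libraries had 91 and 72 reads, so the lack of overlap depends on the scaling. The mean was 63.6 ± 21.1 in Kmt2a KO and 164 ± 79.6 in wild type (SD, n = 3 each), a log2 ratio of −1.37. The authors' deposited table gives an adjusted p of 0.0175 for it. Without wild-type library b the log2 ratio was −0.94, the smallest size that leaving out a library gave for Gp5.

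Clec1b encodes CLEC-2, the receptor for podoplanin. It had 270, 741 and 559 normalized counts in Kmt2a KO libraries a, b and c, against 1503, 1568 and 755 in wild type a, b and c. The groups did not overlap, with 14.7 normalized counts between knockout library b and wild-type library c. Before division by size factors these libraries had 847 and 617 reads, so the lack of overlap depends on the scaling. The mean was 523 ± 238 in Kmt2a KO and 1275 ± 452 in wild type (SD, n = 3 each), a log2 ratio of −1.29. The adjusted p in the authors' deposited table was 0.0192. Without knockout library a the log2 ratio was −0.97.

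**Figure D1:**
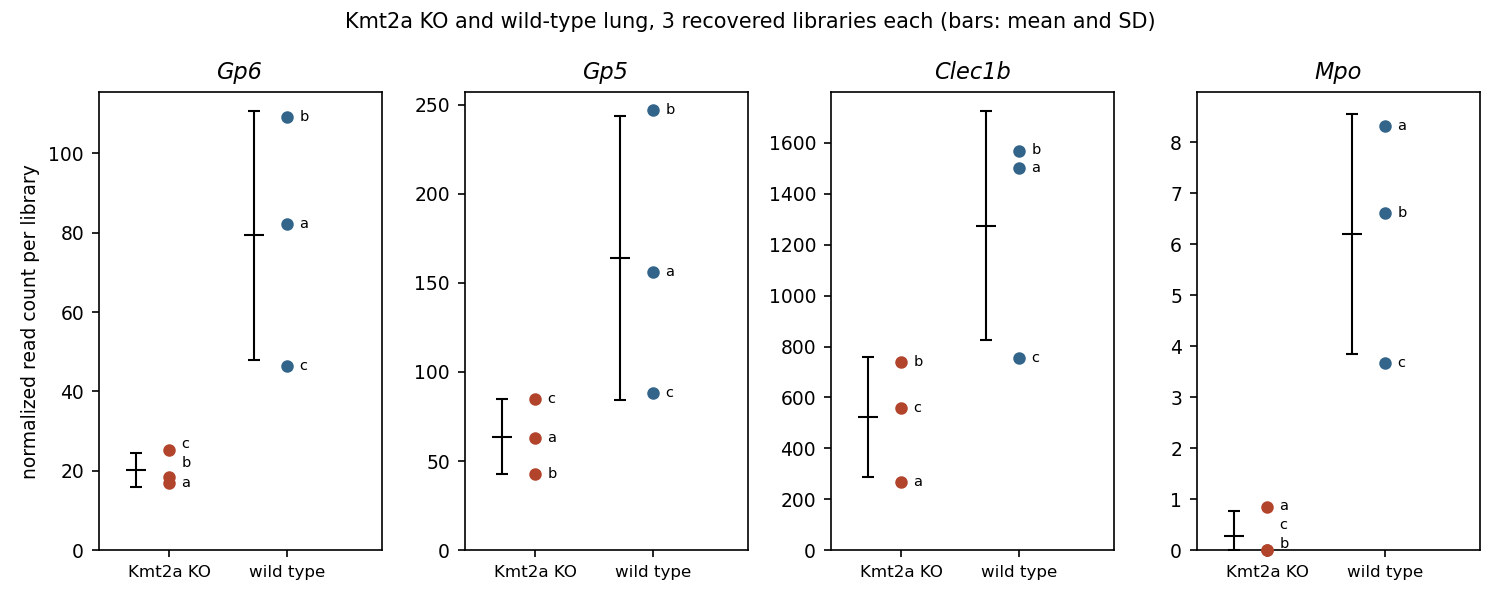
Normalized read counts of Gp6, Gp5, Clec1b and Mpo in the 3 recovered libraries each of Kmt2a KO (red) and wild-type lung (blue), 1 point per library labelled a, b or c, with bars for the mean and SD beside the points (the lower end for Mpo in the knockout is cut at 0). No knockout point lies above a wild-type point, and wild-type library c is the lowest wild-type library in every panel.

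Of the 4 Kmt2a members, all had every knockout library below every wild-type library. The same held for 1661 of 3399 genes with recovered reads, in a table already limited to genes past the authors' adjusted p. Only genes lower in the knockout can show it, and 1742 of the 3399 were lower, so nearly every lower gene did. Gp6, Gp5 and Clec1b shared 1 order of the wild-type libraries, b above a above c. That order was found in 607 of the 3399 genes (17.9%), and in 302 of the 1742 that were lower in the knockout (17.3%). Proportions between the receptors ranged more widely in the knockout than in wild type. Reads of Clec1b were 4.28 to 17.3 times those of Gp5 in the 3 Kmt2a KO libraries, and 6.35 to 9.62 times in the 3 wild-type libraries. Gp5 had 2.33 to 3.70 times the reads of Gp6 in Kmt2a KO, against 1.89 to 2.26 times in wild type, with no overlap. Both ratios rest on as few as 20 reads of Gp6 and 49 reads of Gp5 in a knockout library, and neither difference was tested. Per kilobase of exon, the level of Clec1b was the highest of the 3, with a mean of 103 normalized counts per kilobase in Kmt2a KO and 250 in wild type. Gp5 had 28.9 per kilobase in Kmt2a KO and 74.5 in wild type, and Gp6 had 3.42 in Kmt2a KO and 13.4 in wild type. The library ranges of these levels did not overlap between the 3 genes in Kmt2a KO, nor in wild type.

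In Men1 KO lung, the platelet members with a row were Gp9 and Ppbp, and the size of both differences rested largely on a single wild-type library, WT-6094. Gp9 encodes glycoprotein IX, the subunit that the GPIb-IX-V complex needs to reach the platelet surface. It had 195, 163, 153 and 175 normalized counts in Men1 KO libraries KO-6075, KO-6076, KO-6084 and KO-6086, against 213, 733, 237 and 196 in wild-type libraries WT-6074, WT-6094, WT-6097 and WT-6100. Every knockout library was below every wild-type library, by 0.506 normalized counts between KO-6075 and WT-6100. That depends on the scaling, as KO-6076 had 224 reads of Gp9 and WT-6074 had 180 before division by size factors. The mean was 171 ± 18.4 in Men1 KO and 345 ± 259 in wild type (SD, n = 4 each), a log2 ratio of −1.01. Medians were closer, at 169 in Men1 KO and 225 in wild type. Without WT-6094 the wild-type mean was 215 and the log2 ratio −0.33, and the groups still did not overlap.

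Ppbp encodes platelet basic protein, a chemokine stored in the alpha granules from which the neutrophil attractant CXCL7 is cut in human. It had 701, 452, 748 and 466 normalized counts in Men1 KO libraries KO-6075, KO-6076, KO-6084 and KO-6086, against 899, 2797, 794 and 583 in WT-6074, WT-6094, WT-6097 and WT-6100. WT-6094 was more than 3 times as high as any other library, and KO-6075 and KO-6084 lay above WT-6100. The mean was 591 ± 154 in Men1 KO and 1268 ± 1028 in wild type (SD, n = 4 each), a log2 ratio of −1.10. Medians were 583 in Men1 KO and 846 in wild type. Without WT-6094 the wild-type mean was 759 and the log2 ratio −0.36. In the authors' deposited table the p was 0.0431 for Ppbp and 0.0355 for Gp9, with adjusted p values of 0.387 and 0.369. Gp9 ranked 230 and Ppbp 217 of the 231 lower genes by size of the deposited log2 fold change, which puts Gp9 next to the limit of the table.

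**Figure D2:**
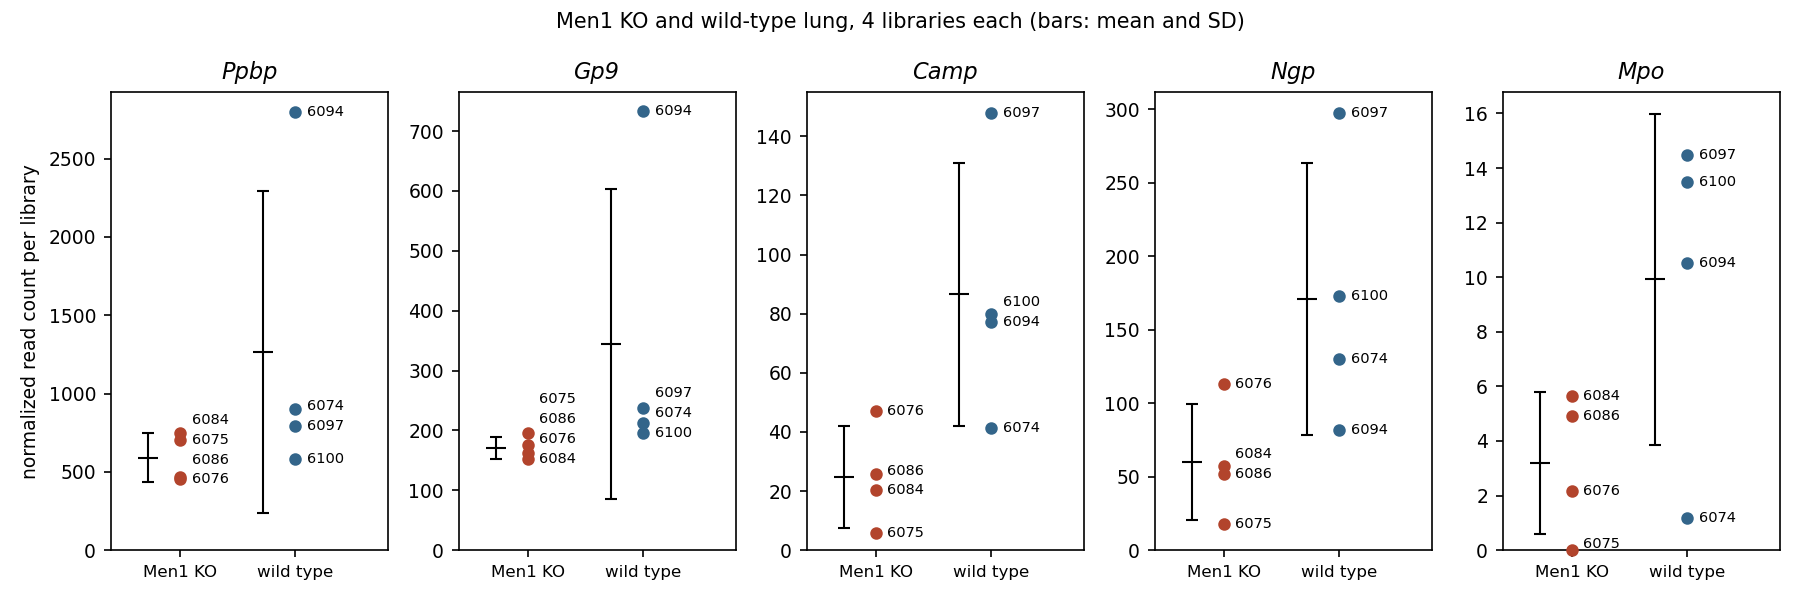
Normalized read counts of the 5 members with a row in the Men1 table, in 4 Men1 KO (red) and 4 wild-type libraries (blue), 1 point per library labelled with its title number, with bars for the mean and SD. In Ppbp and Gp9 WT-6094 stands far above all other libraries, at 2797 and 733, while in Camp and Ngp the highest library is WT-6097.

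The neutrophil granule genes were lower in Men1 KO lung as well, and here a different library was the highest. Camp encodes the cathelicidin CRAMP, an antimicrobial peptide of the secondary granules. It had 5.66, 47.2, 20.2 and 25.9 normalized counts in Men1 KO libraries KO-6075, KO-6076, KO-6084 and KO-6086, against 41.4, 77.3, 148 and 79.8 in WT-6074, WT-6094, WT-6097 and WT-6100. KO-6076 was above WT-6074, and the other 3 knockout libraries were below all wild-type libraries. The mean was 24.7 ± 17.2 in Men1 KO and 86.6 ± 44.5 in wild type (SD, n = 4 each), a log2 ratio of −1.81. The authors' deposited table gives Camp a p of 0.000273 and an adjusted p of 0.0604, rank 26 of the 772 genes by p and the lowest p of the 5 members there.

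Ngp encodes neutrophilic granule protein, a cystatin-related protein of the same granules. It had 17.9, 113, 57.4 and 51.8 normalized counts in Men1 KO libraries KO-6075, KO-6076, KO-6084 and KO-6086, against 130, 82.0, 298 and 173 in WT-6074, WT-6094, WT-6097 and WT-6100. KO-6076 lay above WT-6094, the lowest wild-type library here, although that library was by far the highest for the platelet genes. The mean was 60.1 ± 39.5 in Men1 KO and 171 ± 92.5 in wild type (SD, n = 4 each), a log2 ratio of −1.51, and the adjusted p in the authors' deposited table was 0.265. The log2 ratio lay between −2.01 and −1.10 for Ngp, and between −2.33 and −1.42 for Camp, when any 1 library was left out. Without KO-6076 the groups no longer overlapped in either gene.

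Mpo encodes myeloperoxidase, the primary granule enzyme that makes hypochlorous acid, and it was the scarcest member in both experiments. It had 0, 2.18, 5.66 and 4.93 normalized counts in Men1 KO libraries KO-6075, KO-6076, KO-6084 and KO-6086, against 1.18, 10.5, 14.5 and 13.5 in WT-6074, WT-6094, WT-6097 and WT-6100. WT-6074, with 1 read, lay among the knockout libraries. A count of 0 in KO-6075 allows up to 2.83 normalized counts (3 reads). The groups held 14 reads in Men1 KO and 38 in wild type, a ratio of 0.304 after scaling (95% exact interval 0.152 to 0.574, counting error only). The authors' deposited table gives no adjusted p for it, and a p of 0.0321. In the Kmt2a libraries Mpo had 0.850, 0 and 0 normalized counts in KO libraries a, b and c, against 8.33, 6.61 and 3.67 in wild type a, b and c. These are 1 read in all of Kmt2a KO and 17 in wild type, a ratio of 0.0466 after scaling (95% exact interval 0.00111 to 0.297, counting error only). The authors' deposited table gives a log2 fold change of −4.30 and an adjusted p of 0.0347. The intervals of the 2 ratios overlap, and the knockouts were not compared by a test.

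Of the 5 Men1 members, Gp9 alone had every knockout library below every wild-type library. That pattern was found in 79 of the 772 genes of the Men1 table (10.2%), all of them among its 231 lower genes. By the authors' deposited table, none of the 5 passed an adjusted p of 0.05, and Mpo had no adjusted p. Of the 772 genes, 3 lower genes passed (0.389%), but 557 of the 772 had no adjusted p. Per kilobase of exon, the mean level of Ppbp was 546 normalized counts per kilobase in Men1 KO and 1171 in wild type, and that of Gp9 was 195 in Men1 KO and 391 in wild type. Camp had 32.6 per kilobase in Men1 KO and 114 in wild type, and Ngp had 49.2 in Men1 KO and 140 in wild type, with overlapping library ranges between Camp and Ngp. Mpo was lowest at 0.932 per kilobase in Men1 KO and 2.90 in wild type. Exon lengths are those of the GENCODE release for GRCm38, which need not be those behind the Men1 counts.

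Over the 8 Men1 libraries with group means removed, Ppbp and Gp9 were correlated, with WT-6094 far the highest in both. The granule genes Camp and Ngp were correlated too. Deviations of log2 values from the group mean, over the 8 libraries, correlated at 0.90 between Ppbp and Gp9 and at 0.88 between Camp and Ngp. WT-6094 was far above the rest of its group in both Ppbp and Gp9, and was the lowest wild-type library in Ngp. Among the knockout libraries Ppbp and Gp9 did not rank alike, as KO-6084 was highest in Ppbp (748) and lowest in Gp9 (153). Correlations without WT-6094 were not computed, so its part in these values and in those across the pairs was not measured. Among 336 other genes with a mean of at least 10 in a group, each gene of a pair ranked as the other's second closest. Across the pairs the correlation was −0.59 for Ppbp with Ngp, −0.52 for Gp9 with Ngp, −0.27 for Ppbp with Camp and −0.08 for Gp9 with Camp. Over all 8 libraries with the group means kept, these 4 values were positive, at 0.03, 0.10, 0.26 and 0.38 in the same order of pairs. All of these genes were lower in the knockout, and that shared shift tends to raise values that keep the group means. Mpo, the primary granule gene, stood at 0.73 with Camp, at 0.50 with Ngp, at −0.05 with Ppbp and at 0.06 with Gp9, on 0 to 15 reads per library. These correlations describe 8 libraries with 2 group means removed, and the libraries share their depth and tissue piece across genes. Within a library, Ppbp had 2.66 to 4.89 times the reads of Gp9 in Men1 KO and 2.97 to 4.22 times in wild type. Ngp had 2.00 to 3.17 times the reads of Camp in Men1 KO and 1.06 to 3.14 times in wild type, with the low end in WT-6094. WT-6094 stood apart on the high side of the wild-type group in 31 of the 772 genes (4.02%), against 29 to 36 genes for the other wild-type libraries.

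**Figure D3:**
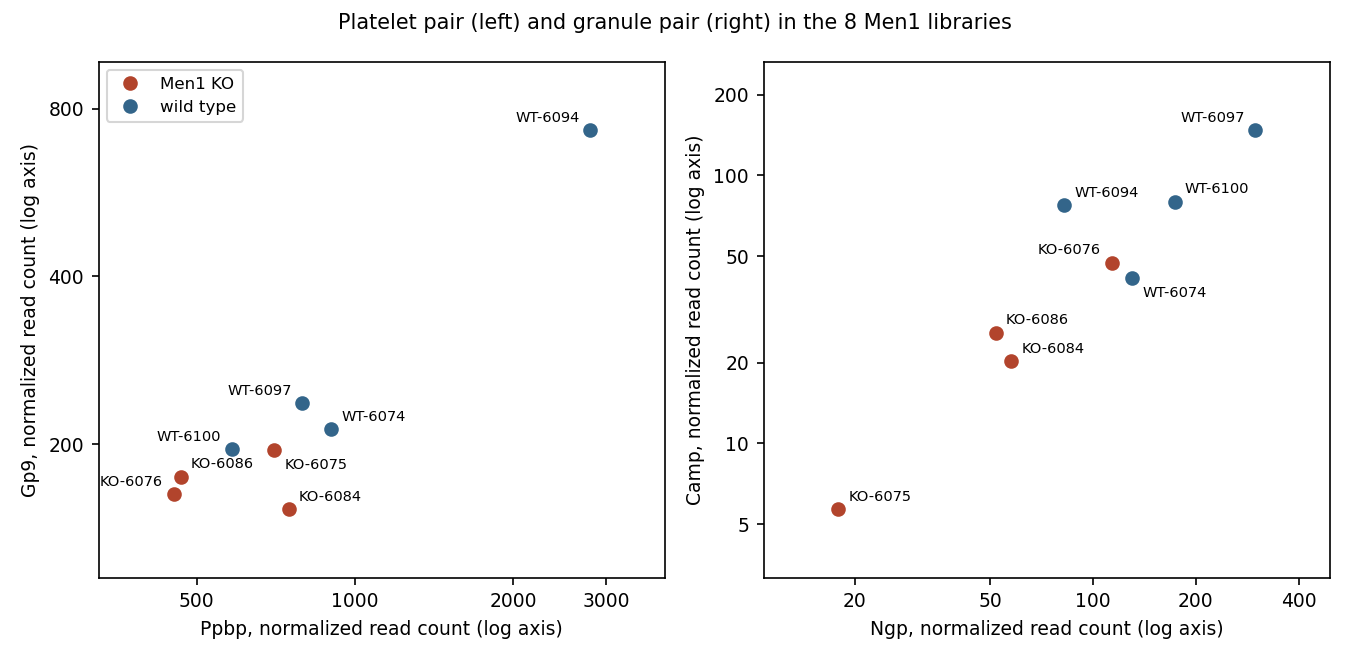
Gp9 against Ppbp (left) and Camp against Ngp (right), in normalized read counts on log axes, 1 point per Men1 KO (red) or wild-type library (blue) with its title number. WT-6094 is the far point for the platelet pair, at 2797 for Ppbp and 733 for Gp9, but lies near the middle for the granule pair, where KO-6075 is lowest and WT-6097 highest.

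The genes closest to each member in this measure were named by rank. For Ppbp they were the predicted gene Gm13408 (0.91), Gp9 and a gene without a symbol in the table (0.89), and for Gp9 a gene without a symbol (0.95), Ppbp and Sh2d6 (0.88). For Camp they were Zscan10 (0.91), Ngp and a gene without a symbol (0.83), and for Ngp they were Gm57084 (0.91), Camp and a gene without a symbol (0.85). For Mpo they were Rpl17-ps5 (0.93), Zscan10 (0.92) and 2310016G11Rik (0.86). In the 6 Kmt2a libraries, Gp5 and Gp6 correlated at 0.92, Gp6 and Clec1b at 0.68, and Gp5 and Clec1b at 0.33. The closest genes there were Meis1 (1.00), Hilpda (1.00) and Apln (0.99) for Gp6, and Il22ra2 (1.00), Ints14 (1.00) and Nynrin (0.99) for Gp5. For Clec1b they were Hoxaas3 (1.00), Fxyd1 (0.99) and Gm28043 (0.99), and for Mpo they included Clcn5 (1.00) and Abhd12 (0.99). With 6 libraries and 2 group means removed, values near 1 are common: Gp5 ranked 89 of 3342 genes for Gp6. With the group means kept, the correlation turned negative for Il22ra2 (−0.27), Ints14 (−0.49) and Nynrin (−0.41) with Gp5, and for Clcn5 (−0.70) and Abhd12 (−0.69) with Mpo. It also turned negative in the Men1 libraries for Gm13408 with Ppbp (−0.04), Sh2d6 with Gp9 (−0.10), Zscan10 with Camp (−0.47) and with Mpo (−0.20), Gm57084 with Ngp (−0.27) and Rpl17-ps5 with Mpo (−0.04).

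The other platelet genes of the lists did not all go the same way in Kmt2a KO. Of 12 adhesion receptor genes, 6 had a row, 3 lower (Gp6, Gp5 and Clec1b) and 3 higher, with a median deposited log2 fold change of −0.39 against 0.32 over all 3956 genes. The higher ones, in the authors' deposited table, were Fcer1g at a log2 fold change of 1.70, Cd36 at 1.13 and Cd9 at 0.51. Fcer1g encodes the signalling chain that glycoprotein VI needs and that macrophages and mast cells also use, while Cd36 and Cd9 are carried by many cell types. Which cells gave the reads was not determined for these genes, nor for Gp6, Gp5 and Clec1b. None of 13 granule and secreted protein genes, Ppbp and Pf4 among them, had a row. Of 24 signalling and shape genes 4 had a row, with deposited log2 fold changes of −1.79 for Nrgn, −1.14 for the smooth muscle light chain Myl9, −0.93 for the ADP receptor P2ry12 and 1.92 for Pdpn. P2ry12 had 60.4, 64.7 and 57.9 normalized counts in Kmt2a KO libraries a, b and c, against 107, 155 and 85.7 in wild type a, b and c, with no overlap. Pdpn encodes podoplanin, the ligand of CLEC-2, which alveolar type 1 cells make, so ligand and receptor had opposite directions.

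Of 11 megakaryocyte transcription factor genes 4 had a row, 3 lower and 1 higher in Kmt2a KO. Gata1, which megakaryocytes and red cell precursors need, had 17.0, 14.0 and 17.7 normalized counts in Kmt2a KO libraries a, b and c, against 64.6, 117 and 28.2 in wild type a, b and c. Its groups did not overlap, it had the same wild-type order as Gp6, Gp5 and Clec1b, and its deposited log2 fold change was −2.11 with an adjusted p of 0.00241. The deposited log2 fold changes were −0.86 for Tal1, −0.82 for Meis1 and 0.79 for the GATA cofactor Zfpm1. In the Men1 table, Gp9 and Ppbp were the only genes of the 4 platelet and megakaryocyte lists with a row.

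Neutrophil granule genes other than Mpo, where they had a row, were higher in Kmt2a KO. Of 19 secondary and tertiary granule genes 6 had a row and all 6 were higher, with a median deposited log2 fold change of 3.72. In the authors' deposited table these were Lcn2 at 4.30, Ltf at 4.26, Olfm4 at 4.24, Chil3 at 3.19, Ceacam1 at 1.81 and Slpi at 1.79. Lung epithelium also makes Lcn2, Ltf and Slpi, and alveolar macrophages make Chil3. The cells behind these higher rows, and behind the lower rows of the members, were not determined. Of 10 primary granule genes 3 had a row: Mpo, lower, and Lyz2 (2.42) and Serpinb1a (0.69), higher, both of which other lung cells express. Of 25 mature neutrophil genes 2 had a row, Wfdc17 (3.05) and Wfdc21 (2.28). Of 9 granulocyte transcription factor genes 2 had a row, Cebpa (1.09) and Cebpb (−0.65). In the Men1 table, Camp, Ngp and Mpo were the only rows of these 4 lists.

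**Figure D4:**
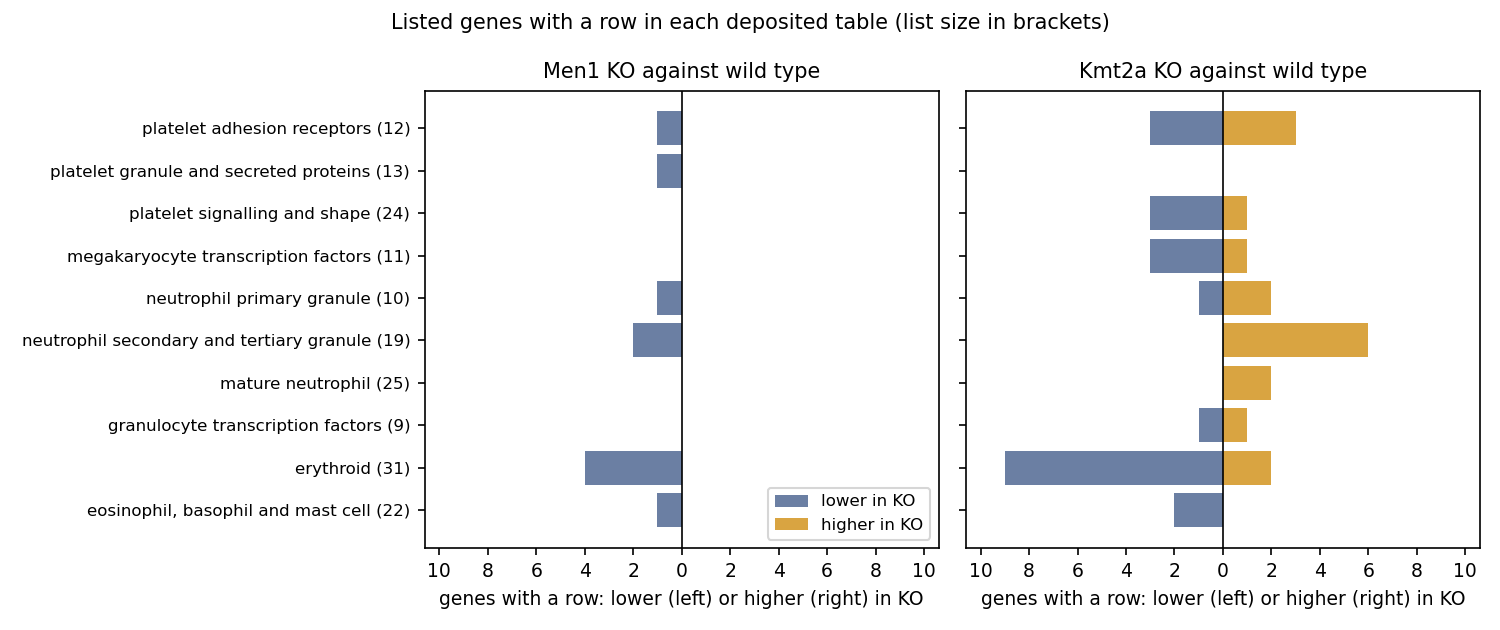
Number of genes of each list with a row in the Men1 table (left panel) and in the Kmt2a table (right panel), with bars to the left for genes lower and to the right for genes higher in the knockout, and list sizes in brackets. Secondary and tertiary granule genes are 2 lower in Men1 KO and 6 higher in Kmt2a KO, while erythroid genes are mostly lower in both.

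Red cell genes with a row were mostly lower too. Of 31 erythroid genes, 4 had a row in the Men1 table, all lower, with a median deposited log2 fold change of −1.40. None of the 4 passed an adjusted p of 0.05 by the authors' deposited table, which gives none for Epb42 and Hemgn. In none of the 4 were all knockout libraries below all wild-type libraries. Their summed level ranged over 39.7 to 63.2 normalized counts in Men1 KO libraries and 73.6 to 192 in wild-type libraries, with Slc4a1 the largest share in every library. The anion exchanger Slc4a1 had 34.0, 49.4, 39.6 and 33.3 normalized counts in Men1 KO libraries KO-6075, KO-6076, KO-6084 and KO-6086, against 92.2, 59.7, 133 and 47.7 in WT-6074, WT-6094, WT-6097 and WT-6100. KO-6076 lay above WT-6100 for it. It was highest in WT-6097, as Camp, Ngp and Mpo were, and not in WT-6094. The basophil protease gene Prss34 had a deposited log2 fold change of −1.57. Of the same 31 genes, 11 had a row in the Kmt2a table, 9 lower and 2 higher (Add2 at 2.36 and Tfrc at 0.76), with a median of −2.11, and their deposited means summed to 21178 in Kmt2a KO and 112909 in wild type. The mast cell protease genes Mcpt4 (−2.40) and Cma1 (−1.82) were the 2 rows of 22 eosinophil, basophil and mast cell genes there. The 7 erythroid genes of the Kmt2a table with recovered reads summed to between 2574 and 2870 normalized counts in Kmt2a KO libraries and between 2536 and 2677 in wild-type libraries, most of it Tfrc, the transferrin receptor of dividing cells and 1 of the 2 higher genes. No erythroid row was listed at a mean of 0 in either group, and the part of red cell genes in the members' lower values was not tested.

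Markers of other tissue also moved in the Kmt2a table. Of 14 cardiac muscle genes 13 had a row and all were lower, their deposited means summing to 11020 in Kmt2a KO and 75335 in wild type. The 5 cardiac genes with recovered reads summed to between 662 and 1493 normalized counts in Kmt2a KO libraries, and to between 1733 and 10664 in wild-type libraries. The wild-type library with the most reads of the atrial gene Sln was a, with 4410 normalized counts, and b had the fewest, with 562, unlike the order b, a, c of the platelet receptors. Of 14 alveolar type 2 genes 12 had a row, all higher (summed deposited means 402910 in Kmt2a KO and 105131 in wild type). Of 14 alveolar type 1 genes 8 had a row, all higher, and of 10 airway genes 3 had a row, all lower. Monocyte and macrophage genes had 9 rows of 16, 8 higher and 1 lower (summed deposited means 24529 in Kmt2a KO and 5746 in wild type). Genes of peritoneal macrophages had 3 rows of 13, 2 higher and 1 lower. Of 14 endothelial genes 2 had a row, both lower (9364 in Kmt2a KO and 17639 in wild type). No marker of B or T cells had a row, and no marker with a row was listed at 0. The part of these shifts in the members' values was not tested. In the Men1 table none of these marker lists had a row.

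**Figure D5:**
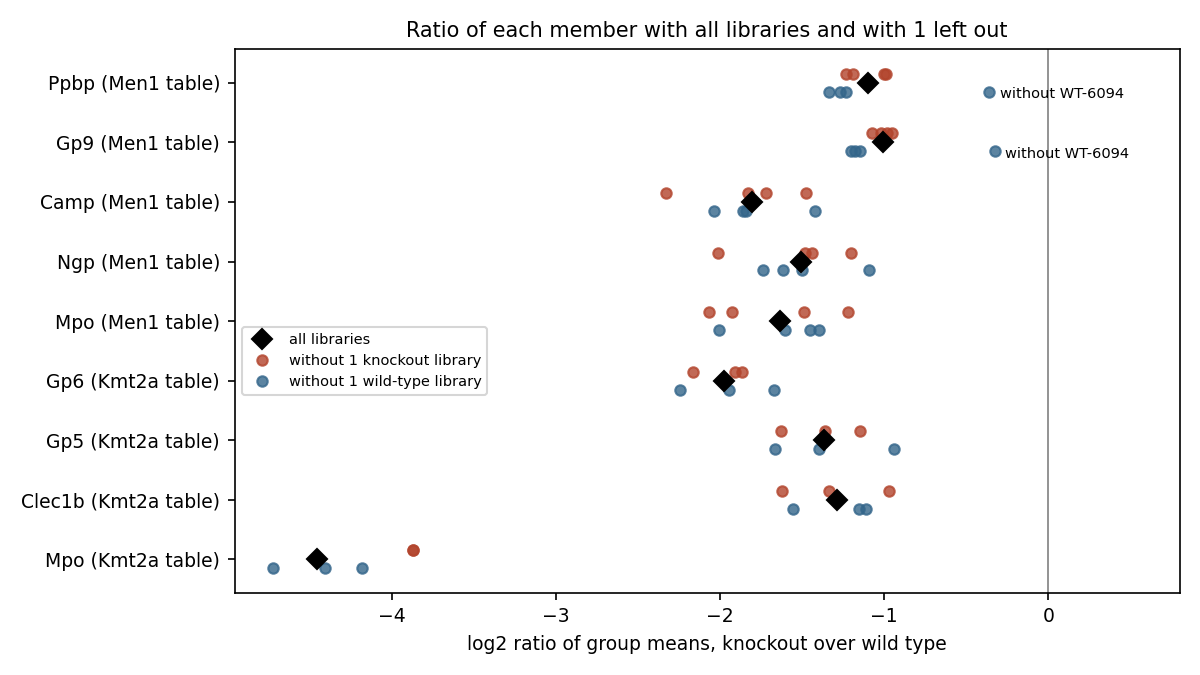
Log2 ratio of group means, knockout over wild type, for each of the 9 member rows with all libraries (diamonds) and with each knockout (red) or wild-type library (blue) left out in turn. Values without WT-6094 are labelled and lie at −0.36 for Ppbp and −0.33 for Gp9. Mpo in the Kmt2a table has no value without knockout library a, which holds its only read in that group.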

How the data were processed

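The 14 libraries are RNA-seq of mouse lung, per the labels. The submitters' processing notes name the builds GRCm38 and mm10 and the tools DESeq2 1.16.1, featureCounts 1.5.0-p3 and HISAT2 2.0.5, with no roles. The deposited Men1 table holds raw read counts and a signal per library, the counts as the authors normalized them with size factors. The deposited Kmt2a table, per the file headers, holds a mean signal per group and gene length. Both hold the authors' log2 fold change and their p-value and adjusted p-value, and only genes the authors selected, so no test across genes was made here and the authors' values are given as theirs. No adjusted p-value is given for 557 genes of the Men1 table, and 2 per-sample columns matched no sample and were not used. The libraries behind the wild-type column of the Kmt2a table are not named in it, and the samples labelled as Kmt2a wild type were assumed.

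The Kmt2a means carry 15 significant digits, which allowed whole reads of 3 libraries to be recovered from means up to 3000. All 3497 knockout and 3574 wild-type means in that range had a single solution, and 3399 genes had both. The recovery was tested on simulated data. Log2 ratios of group means (knockout over wild type), means and SDs were computed with no pseudocount, and likeness as Pearson's r on log2 values with a pseudocount of 1. Intervals are exact at 95% and cover counting error only, and the floor of a count of 0 is 3 reads. The labels do not say whether replicates are separate animals. Python 3.11.15, numpy 2.4.6, pandas 2.3.3, scipy 1.17.1, numba 0.67.0 and matplotlib 3.10.9 were used. Sequences are from RefSeq (GRCm38.p6), shown only where the RefSeq and GENCODE starts were at most 2 bases apart, and matched for all 8 members.

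The members and gene lists were chosen with earlier results of these data known. Named were all members, at most 4 genes per list and table by size of change apart from lists described in full, and the 3 genes most like each member, 1 of which is not reported here. Alternatives were a pseudocount of 10, a mean of at least 50, medians, no size factors and leaving out each library.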

Additional observations from a re-analysis of the deposited data

Results flagged for a closer look

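WT-6094 stood apart from the other 3 wild-type libraries of the Men1 experiment in both platelet genes with a row there. Ppbp had 2797 normalized counts in it, against 583 to 899 in the other 3, a gap of 0.857 of the group's range. Gp9 had 733, against 196 to 237 in the other 3, a gap of 0.924 of the range. Both gaps exceed Dixon's 95% critical value for 4 libraries, which about 1 of 20 groups of unselected, normally distributed values would pass. The Men1 table was selected by p and fold change, so that rate need not hold in it. There, each wild-type library stood apart on the high side in 29 to 36 of the 772 genes. Ppbp and Gp9 share the library, so they are not independent instances. No gap passed this limit for Camp, Ngp or Mpo, nor for any of the 5 genes in Men1 KO. The groups of 3 Kmt2a libraries were not examined in this way.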

How the results depend on the processing

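The count of members lower in the knockout stayed at 5 in Men1 KO and 4 in Kmt2a KO under every alternative except the minimum mean of 50, which leaves 4 and 3 members, all lower. Over all alternatives and members, none of 59 Men1 and 37 Kmt2a log2 ratios changed sign, with ranges of −2.33 to −0.33 and −4.72 to −0.66. The members were chosen with their lower values known, from filtered tables, so a stable sign was likely from the start and is no support for them. The ratio moved by more than the spread between libraries once in Men1 (Gp9 without WT-6094, −0.33) and 3 times in Kmt2a, all for Mpo: −0.66 with a pseudocount of 10 and −3.87 without knockout library b or c. Without WT-6094, the fold between groups shrank 1.67 times for Ppbp and 1.60 times for Gp9. The log2 ratio of Ppbp went from −1.10 to −0.36, only just within its spread of 0.749, a spread that includes WT-6094. Closest-gene ranks depended on removing group means: over all libraries 7 of 15 Men1 and 6 of 12 Kmt2a pairs changed sign, while Ppbp with Gp9 (0.93) and Camp with Ngp (0.94) became each other's closest. These members were all lower in the knockout, a shared shift that tends to raise correlations when group means are kept. No paired analysis was possible because the labels give the groups no shared replicate numbers. Depth limits Mpo most, with at most 15 reads in a library.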
